A study of Rattus norvegicus with 7 samples.

Results

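The set described here is 58 growth factor, receptor and binding protein genes, measured in alveolar type 2 cells of rats fed ethanol and of rats on an isocaloric diet. The members are the genes whose single platform symbol begins with Fgf, Igf, Pdgf, Vegf, Erbb, Bmp, Inhb or Nrg, or is Egf, Egfr, Areg, Tgfa, Hgf, Met, Flt1, Kdr or Kit. They are 58 of the 4736 genes with a symbol of their own, and 109 probe sets read them. A gene with more than 1 probe set is represented by its brightest, judged by the mean of all 7 arrays whatever their diet. Spelling also brought in 4 genes of other kinds: the kinase Bmp2k, Fgfr1op2, a gene named as a fusion partner of FGFR1, the pseudogene Fgfr1-ps1 and the neuronal calmodulin-binding protein Nrgn. They were kept as members and are counted apart: 0 of 4 passed, 1 was above 0 and 3 below, and the range was -0.18 to 0.049.

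The animals were male Sprague Dawley rats. In 3 of them ethanol made up 36% of the calories of a liquid Lieber-DeCarlie diet for 6 weeks, and 4 rats took an isocaloric diet with no ethanol over the same time. Type 2 cells were isolated by immunoabsorption, RNA was taken with Trizol, and biotin-labelled RNA of each animal was read on its own Affymetrix array, so n counts animals (control 1 to 4, ethanol 2 to 4, numbered as in the titles). No ethanol 1 is among the samples given. Age is not stated. The array numbers in the titles put all controls before all ethanol samples, so diet and any effect of that order cannot be told apart.

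The cells that secrete surfactant, type 2 cells, also sit at the centre of growth factor exchange in the lung. FGF7, FGF10 and HGF from mesenchymal neighbours act on the receptors FGFR2 and MET of the epithelium and drive its growth and repair. EGF family ligands act through the ERBB receptors in the same cells. In the other direction, the epithelium releases VEGFA for capillary endothelium and PDGFA for fibroblasts, while BMP and activin ligands signal through SMAD proteins and insulin-like growth factors act through IGF1R, restrained by binding proteins.

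Across the arrays, control 2 stood apart on the first principal component of all probe sets, at 30.5 where the other 6 lay between -18.9 and 5.83. In the members it was the highest control in 20 of 58 (34.5%, all genes 36.2%). Its SD of log2 values was 1.29, against 1.34 to 1.46 on the other 6 arrays. The surfactant protein genes and Nkx2-1 stood for the type 2 cell: 5 of 12 markers were measured, with mean levels of 6.19 to 12.71, and 0 passed. The array gives no zero values, so the absence of a cell type cannot be read from it.

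No growth factor or receptor gene passed the test for a difference between the diets. In limma, a linear model fitted over all 8740 probe sets with Benjamini-Hochberg adjustment, 0 of the 58 were at adjusted p under 0.05, and their adjusted p ran from 0.967 to 1.00. Over all probe sets 13 passed (0.149%), and over the 4736 genes with 1 probe set each 1 passed (0.0211%). At unadjusted p under 0.05 there was 1 member of 58, Bmp6, a share of 1.72% where all genes gave 4.37%. Without control 2 there were 0 past the threshold and 2 at unadjusted p under 0.05, Bmp6 and Igf2r, where 4.71% of all probe sets were. The ethanol arrays all lay above the controls in 3 members, Tgfa, Fgf10 and Igf2r (all genes 2.09%), and all lay below them in 1, Bmp6 (all genes 2.83%). Together these are 4 of 58 (6.90%) where all genes gave 4.92%, which is no result about the members as a set.

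Differences were small in both directions. The members ran from -0.39 (Kdr) to 0.28 (Tgfa) on the log2 scale, with 24 above 0 and 34 below. Their median was -0.025, or -0.028 over the 54 without the spelling matches, and the median over all genes -0.014. The median size of a difference, whatever its sign, was 0.11 in the members and 0.11 in all genes. The 95% confidence interval of the difference, taken gene by gene and not adjusted for the number of genes, lay between -1 and 1 for 58 of 58 members, so that each interval leaves out a 2-fold difference either way in these values, and between -0.5 and 0.5 for 36. Its median half-width was 0.32. The mean level of 20 of the 58 lay under the median of all probe sets.

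**Figure D1:**
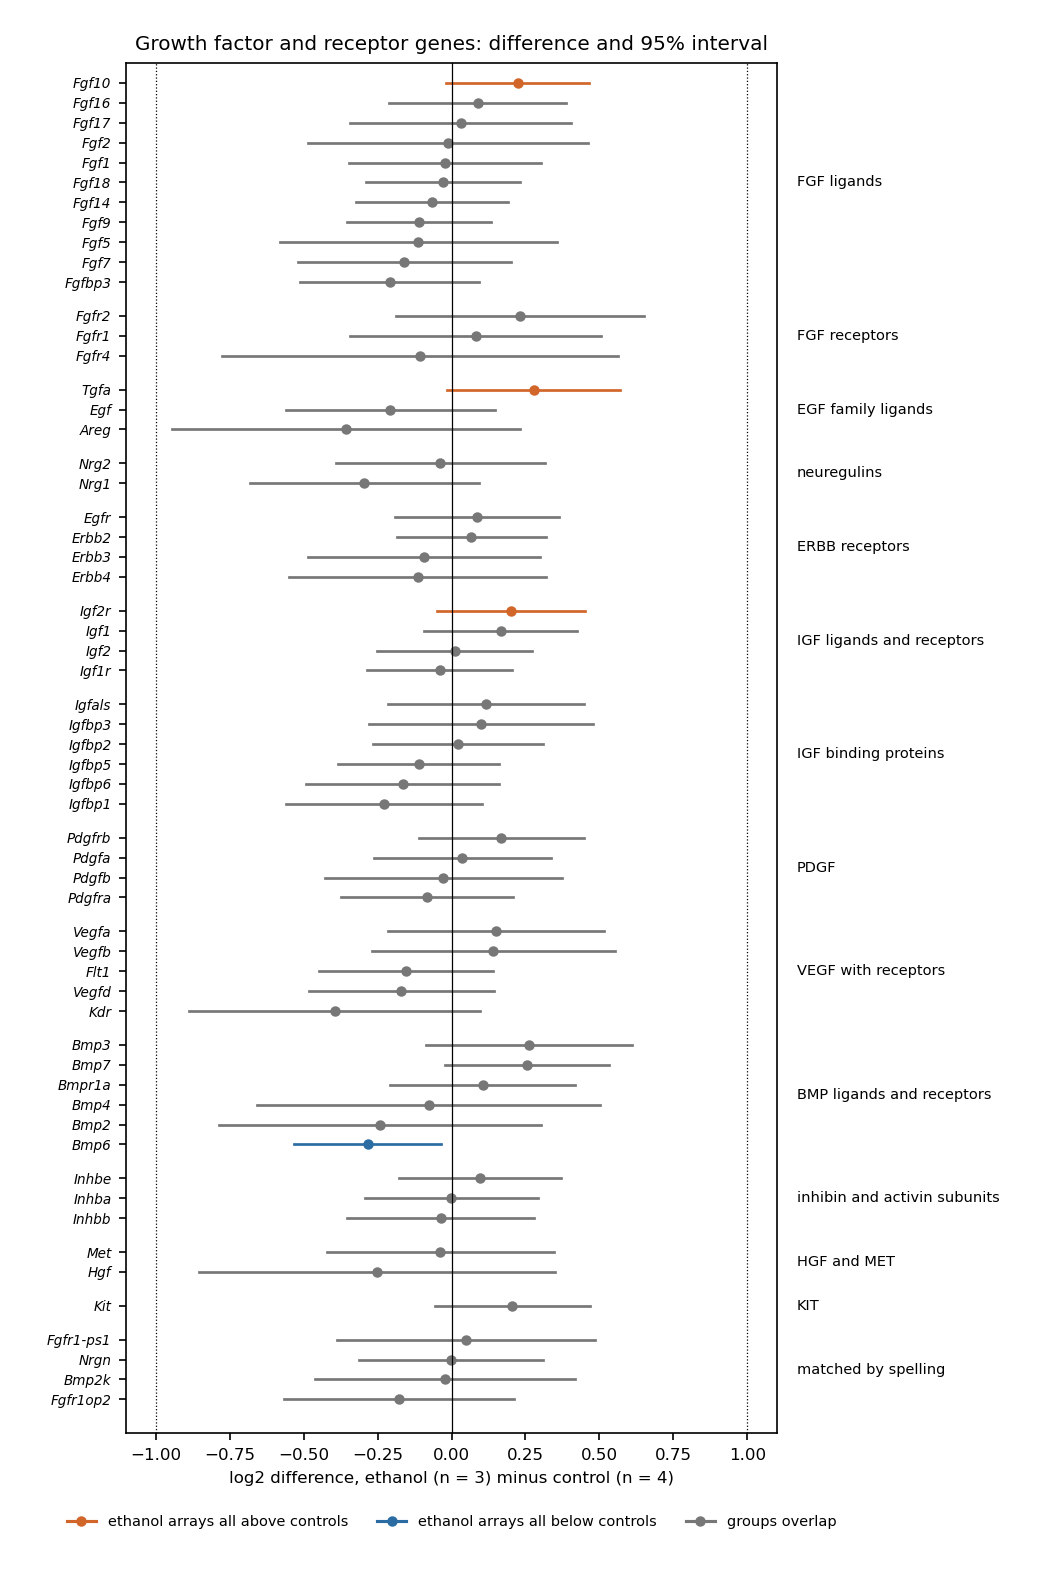
Log2 difference between ethanol (n = 3) and control (n = 4) arrays (x axis) for each of the 58 genes (y axis, grouped by role), with its 95% confidence interval as a line; dotted lines mark a difference of -1 and 1, and colour marks groups that do not overlap (orange: ethanol above, blue: below). Only the interval of Bmp6 (-0.53 to -0.035) leaves out 0, and all 58 lie between the dotted lines.

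**Figure D2:**
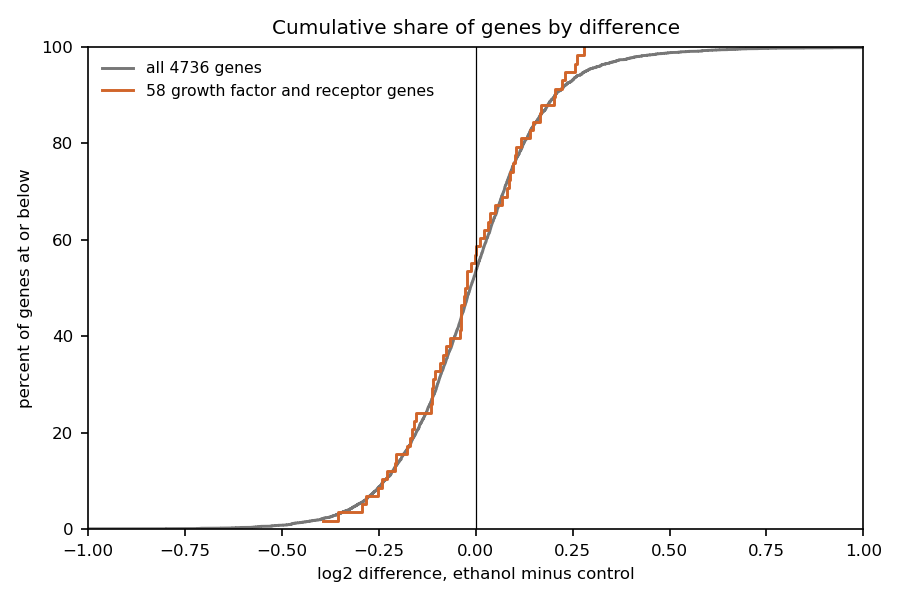
Cumulative percent of genes (y axis) at or below a log2 difference between ethanol and control (x axis), for all 4736 genes in grey and the 58 members in orange; the x axis ends at -1 and 1, past which a few of all genes lie. Both curves cross the middle close to 0, at medians of -0.014 and -0.025.

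For the 4 members whose groups did not overlap, the bases before the annotated start of the gene are given as a record of the promoters in question, from RefSeq on the GRCr8 build. RefSeq windows were found for 49 of the 58 members. Each run is 250 bases, 5′ to 3′ on the strand of the gene, and capitals mark matches to the GC box GGGCGG and the E-box CACGTG on either strand. These windows held no match to the TATA box TATAAA on either strand. The windows are chr17:26675262-26675511 (minus strand) for Bmp6, chr2:52533689-52533938 (plus strand) for Fgf10, chr1:50526628-50526877 (plus strand) for Igf2r and chr4:120175469-120175718 (plus strand) for Tgfa.
Bmp6: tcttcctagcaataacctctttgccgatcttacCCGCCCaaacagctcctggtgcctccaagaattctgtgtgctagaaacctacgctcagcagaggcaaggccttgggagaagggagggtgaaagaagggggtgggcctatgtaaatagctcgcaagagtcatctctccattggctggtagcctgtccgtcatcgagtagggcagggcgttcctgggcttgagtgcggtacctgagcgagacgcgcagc
Fgf10: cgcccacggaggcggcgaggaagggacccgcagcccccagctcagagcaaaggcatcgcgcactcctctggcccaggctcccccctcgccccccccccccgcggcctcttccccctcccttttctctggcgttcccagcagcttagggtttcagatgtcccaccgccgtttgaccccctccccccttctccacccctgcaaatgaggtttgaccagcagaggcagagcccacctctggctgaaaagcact
Igf2r: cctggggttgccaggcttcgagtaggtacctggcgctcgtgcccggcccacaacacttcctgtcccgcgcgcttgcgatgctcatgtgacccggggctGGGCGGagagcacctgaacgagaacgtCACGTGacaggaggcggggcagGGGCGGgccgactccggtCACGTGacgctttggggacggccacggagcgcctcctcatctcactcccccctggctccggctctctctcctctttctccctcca
Tgfa: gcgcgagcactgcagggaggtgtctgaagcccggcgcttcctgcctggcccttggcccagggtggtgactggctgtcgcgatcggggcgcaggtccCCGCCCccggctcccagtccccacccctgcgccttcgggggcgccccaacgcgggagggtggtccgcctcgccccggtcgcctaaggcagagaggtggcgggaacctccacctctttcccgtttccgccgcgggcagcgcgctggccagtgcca
The GC box was matched once in Bmp6 and Tgfa and 2 times in Igf2r, and the E-box was matched 2 times in Igf2r. Of all 33469 RefSeq windows of this length, 30.5% held the GC box, 5.59% the E-box and 12.9% the TATA box. In the members with a window the counts were 28, 5 and 8 of 49. These count genes, with a match in any window of the gene, while the percentages count windows. A match describes the letters and not a bound site, and the array holds no reading of promoter activity.

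Among the BMP ligands and receptors, Bmp6 had the lowest p of all members. Bmp6 is a bone morphogenetic protein, best known for inducing hepcidin in iron control. Its probe set X58830_at read 5.85, 5.70, 5.72 and 5.66 in controls 1 to 4 and 5.40, 5.42 and 5.53 in ethanol 2 to 4. All 3 ethanol arrays were below all 4 controls, with means of 5.73 ± 0.081 (SD, n = 4) and 5.45 ± 0.069 (SD, n = 3). The log2 difference was -0.28 (SE 0.11), the control mean being 1.22 times the ethanol mean, with limma's unadjusted p at 0.0294 and adjusted p at 0.967. With 1 array left out it ran from -0.32 to -0.24, and the unadjusted p was between 0.0543 and 0.0844 without control 1, control 3, ethanol 2 or ethanol 3. The second Bmp6 probe set, U66298_at, read 5.37, 4.96, 5.41 and 5.19 in the 4 controls and 5.26, 5.06 and 4.99 in the 3 ethanol arrays, where the groups overlap and the difference was -0.13 (SE 0.14).

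Bmp7, a ligand with a part in epithelial and kidney development, stood on the other side. It read 5.03, 5.08, 5.15 and 5.07 in the controls and 5.44, 5.45 and 5.12 with ethanol. Ethanol 2 and 3 were above every control, while ethanol 4 was within the control range, and the difference was 0.26 (SE 0.12). Bmp3, a ligand that can oppose other BMPs, was at 0.26 (SE 0.16) in its brighter probe set, with overlapping groups. Its dim second probe set, S77492_i_at, did not overlap, at 2.67, 2.66, 2.23 and 2.77 in the 4 controls and 3.35, 2.84 and 3.23 in the 3 ethanol arrays, a difference of 0.55 (SE 0.17) with limma's unadjusted p at 0.0101 and adjusted p at 0.967. That probe set was picked out after its values were seen. Bmp2 and Bmp4, ligands of lung branching, were at -0.24 and -0.077, with 1 ethanol array far from the rest in each. Bmp2 read 2.48 in ethanol 4 against 3.30 to 3.64 on the other 6 arrays, and Bmp4 read 3.76 in ethanol 2 against 4.46 to 5.05 on the other 6. With 1 array left out the difference ran from -0.44 (without ethanol 3) to 0.10 (without ethanol 4) in Bmp2 and from -0.35 (without ethanol 4) to 0.29 (without ethanol 2) in Bmp4. The second Bmp2 probe set, L20678_at, read 3.23, 3.30, 3.06 and 3.21 in the controls and 2.99, 3.06 and 3.03 with ethanol. All ethanol arrays were below the controls, ethanol 3 under control 3 only in a later decimal place, and the difference was -0.17 (SE 0.11). The type I receptor gene Bmpr1a completes the group, in which 0 of 6 passed, 3 were above 0 and 3 below.

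Inhibin and activin subunits lay close to 0. Inhba and Inhbb encode the chains of activins A and B, and Inhbe the liver-type activin E. All 3 differences lay between -0.037 and 0.096, and 0 of 3 passed. Inhbe read 4.50, 4.56, 4.63 and 4.59 in the 4 controls and 4.69, 4.83 and 4.48 in the 3 ethanol arrays, a difference of 0.096 (SE 0.12). Inhbb read 5.33, 5.71, 5.77 and 5.78 in the controls and 5.67, 5.64 and 5.51 with ethanol, a difference of -0.037 (SE 0.14). In Inhbb control 1 was the lowest array, and the ethanol arrays lay between it and the other controls.

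Of the EGF family ligands, Tgfa had the highest difference of all members and Areg the second lowest. Tgfa encodes transforming growth factor alpha, a ligand of EGFR made by epithelium. It read 3.77, 3.81, 3.95 and 4.04 in the 4 controls and 4.37, 4.10 and 4.04 in the 3 ethanol arrays. The ethanol arrays were all above the controls, but ethanol 4 exceeded control 4 only in a later decimal place. The difference was 0.28 (SE 0.13), and the ethanol mean was 1.21 times the control mean. It came to 0.18 without ethanol 2, the highest array, and to 0.34 without ethanol 4. Areg, amphiregulin, is an EGFR ligand of wound repair, and it read 7.03, 6.47, 6.78 and 6.97 in the controls and 5.76, 6.74 and 6.88 with ethanol. Here ethanol 3 and 4 were within the control range and ethanol 2 was the lowest array, and the difference of -0.36 (SE 0.26) came to -0.0054 without ethanol 2 and to -0.57 without ethanol 4. The summed level of the 5 type 2 cell markers was lowest on that array too, at 10067 against 12155 to 13061 on the other 6, and its part in the Areg value was not tested. Egf itself was at -0.21 (SE 0.16), with its other probe set at -0.27, and 0 of 3 ligands passed.

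The neuregulins, ligands of ERBB3 and ERBB4, were both below 0, and 0 of 2 passed. Nrg1 had 7 probe sets, the most of any member. The brightest read 5.72, 5.83, 6.17 and 5.48 in the 4 controls and 5.69, 5.33 and 5.50 in the 3 ethanol arrays, a difference of -0.29 (SE 0.17), with control 4 below 2 of the 3 ethanol arrays. Its dimmest probe set, U02320_s_at, did not overlap, at 2.87, 2.94, 2.76 and 3.03 in the controls and 2.55, 2.68 and 2.42 with ethanol. There the difference was -0.35 (SE 0.12), with limma's unadjusted p at 0.0171 and adjusted p at 0.967. The 5 other Nrg1 probe sets ran from -0.15 to 0.12, 3 of them below 0. Nrg2 read 4.99, 5.40, 5.0 and 4.76 in the 4 controls and 5.05, 4.87 and 5.07 in the 3 ethanol arrays, with control 2 the highest array and a difference of -0.038 (SE 0.16).

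The 4 ERBB receptors lay between -0.11 and 0.086. Egfr, the receptor of EGF, TGF-alpha and amphiregulin, read 4.84, 4.82, 4.71 and 4.77 in the controls and 4.94, 4.66 and 5.02 with ethanol. Erbb2, the co-receptor without a ligand of its own, read 4.83, 4.84, 4.84 and 5.03 in the 4 controls and 5.0, 4.88 and 4.97 in the 3 ethanol arrays. Both groups overlap in each gene, and the differences were 0.086 (SE 0.12) and 0.067 (SE 0.11). Erbb3, a partner with a weak kinase, was at -0.093 (SE 0.17), and with Erbb4 0 of 4 receptors passed, 2 above 0 and 2 below.

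FGF genes other than the receptors came next, 11 with the carrier protein Fgfbp3, and not all of the 11 encode receptor ligands. Of these 0 passed, 3 were above 0 and 8 below, and the range was -0.21 to 0.22. Fgf10, the mesenchymal ligand that lung budding needs, was the only one whose groups did not overlap. It read 2.83, 2.99, 2.95 and 2.87 in the controls and 3.13, 3.10 and 3.17 with ethanol, among the dim probe sets of the array, and the difference was 0.22 (SE 0.11), the ethanol mean being 1.17 times the control mean. Fgfbp3 read 4.60, 4.62, 4.92 and 4.63 in the 4 controls and 4.54, 4.62 and 4.29 in the 3 ethanol arrays, and control 3 stood above the other arrays (difference -0.21 (SE 0.13)). Fgf7, the keratinocyte growth factor that stimulates type 2 cells to divide, was at -0.16 (SE 0.16). Fgf9, a ligand of the lung mesothelium and epithelium, was at -0.11 (SE 0.11).

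Fgfr2, whose epithelial form receives FGF7 and FGF10, read 5.42, 4.71, 5.04 and 5.37 in the controls and 5.15, 5.50 and 5.46 with ethanol. Control 2 was the lowest array and ethanol 3 the highest, and the groups overlap, at 0.23 (SE 0.19). It was 0.091 without control 2 and 0.34 without ethanol 2. The 4 Fgfr2 probe sets ran from -0.12 to 0.23, and 2 were on either side of 0. Fgfr1, a receptor of mesenchymal cells, read 5.72, 5.37, 5.19 and 4.85 in the 4 controls and 5.44, 5.37 and 5.27 in the 3 ethanol arrays, with control 1 highest and control 4 lowest, so that the ethanol arrays lay inside the control range and the difference was 0.081 (SE 0.19). With Fgfr4, 0 of 3 FGF receptors passed.

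Hgf and Met, the hepatocyte growth factor and its receptor, were both below 0 in their brightest probe sets, and 0 of 2 passed. Their dimmer probe sets were at -0.096 and 0.14 in Hgf and at 0.057 and 0.073 in Met. Hgf read 4.17, 5.03, 4.40 and 3.98 in the controls and 4.63, 3.85 and 3.95 with ethanol. Control 2 was the highest array and the difference of -0.25 (SE 0.27) came to -0.041 without it and to -0.50 without ethanol 2. Met read 4.25, 4.29, 4.21 and 3.69 in the 4 controls and 4.04, 4.26 and 3.91 in the 3 ethanol arrays, with control 4 alone below the ethanol arrays, and a difference of -0.038 (SE 0.17). Kit, the stem cell factor receptor carried by mast cells among others, read 3.37, 3.44, 3.38 and 3.65 in the controls and 3.68, 3.63 and 3.69 with ethanol. All but 1 of its ethanol arrays lay above the controls, with ethanol 3 just under control 4, and the difference was 0.21 (SE 0.12). The other Kit probe set was at -0.19. Of 8 mast cell markers 7 were measured, 2 above 0 and 5 below, and their summed level was 220.1 to 235.6 in controls and 196.6 to 223.5 with ethanol (log2 values turned back to the linear scale and added). Their part in the Kit value was not tested.

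Among the IGF ligands and receptors, Igf2r was the gene whose groups did not overlap. Igf2r encodes the mannose 6-phosphate receptor, which clears IGF2 and carries lysosomal enzymes. It read 5.87, 6.04, 5.79 and 5.85 in the 4 controls and 6.09, 6.10 and 6.07 in the 3 ethanol arrays. The 3 ethanol arrays were close to each other and lay above the controls, nearest to control 2. With means of 5.89 ± 0.11 (SD, n = 4) and 6.09 ± 0.011 (SD, n = 3), the difference was 0.20 (SE 0.11), and the ethanol mean was 1.15 times the control mean. Igf1, the ligand of IGF1R that macrophages and fibroblasts of the lung produce, read 8.15, 8.24, 8.12 and 8.13 in the controls and 8.30, 8.48 and 8.21 with ethanol, a difference of 0.17 (SE 0.11) with ethanol 4 inside the control range. All 5 Igf1 probe sets were above 0, from 0.068 to 0.28. They read the same RNA of the same 7 animals and so are not 5 separate tests. Of 13 macrophage and monocyte markers 5 were measured and 5 of 5 were above 0 (46.6% of all genes were), with differences of 0.045 to 0.21 and 0 passed. Their summed level was 111.6 to 149.8 in controls and 134.7 to 152.9 with ethanol, and their part in the Igf1 value was not tested.

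The signalling receptor gene Igf1r was at -0.04 (SE 0.11) in its brighter probe set. The other, L29232_at, was at 0.19 (SE 0.11) and its groups did not overlap, so that the 2 probe sets disagree in sign. Igf2, the fetal ligand, was at 0.01 (SE 0.12), with 6 probe sets from -0.40 to 0.12. The highest, X17012mRNA_s_at, did not overlap, at 4.74 to 4.93 in the controls and 4.95 to 5.03 with ethanol (difference 0.12, SE 0.11). The lowest pair, X16703_r_at and X16703_i_at, held control 2 apart, which read 5.26 and 4.64 where the other controls read 3.14 to 3.99 and 3.30 to 3.88. Of the IGF ligands and receptors 0 of 4 passed.

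IGF binding proteins, which hold IGFs in the circulation and tissue, were 3 above 0 and 3 below with the acid-labile subunit gene Igfals, and 0 of 6 passed. Igfbp1, a binding protein that liver raises in fasting, read 4.85, 5.02, 4.80 and 4.46 in the 4 controls and 4.65, 4.54 and 4.46 in the 3 ethanol arrays. Control 4 was the lowest array, and the 3 ethanol arrays were below the other controls, at -0.23 (SE 0.15). Without control 4 the difference was -0.34, with limma's unadjusted p at 0.0308 and adjusted p at 0.543, and without control 2 it was -0.15, with unadjusted p at 0.315 and adjusted p at 0.981. Igfbp6, which prefers IGF2, read 4.85, 4.57, 4.51 and 4.90 in the controls and 4.54, 4.37 and 4.71 with ethanol and was at -0.16 (SE 0.14). The 3 probe sets of Igfals were all above 0, from 0.12 to 0.37.

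PDGF genes encode ligands and receptors of signals to fibroblasts and pericytes. Pdgfrb, the pericyte and smooth muscle receptor, read 4.71, 4.50, 4.78 and 4.82 in the 4 controls and 4.95, 4.76 and 4.90 in the 3 ethanol arrays, with control 2 lowest and a difference of 0.17 (SE 0.12). Pdgfra, the receptor of alveolar fibroblasts, read 4.42, 4.63, 4.61 and 4.25 in the controls and 4.42, 4.42 and 4.34 with ethanol, a difference of -0.083 (SE 0.13). Pdgfb, a ligand made by endothelium, read 5.30, 4.78, 5.57 and 5.28 in the 4 controls and 5.32, 5.12 and 5.18 in the 3 ethanol arrays in its brighter probe set, where controls 2 and 3 were the lowest and highest arrays and the difference was -0.027 (SE 0.18). Its dim probe set Z14117cds_i_at gave another picture, at 3.12, 3.25, 3.52 and 3.62 in the controls and 3.77, 3.93 and 3.69 with ethanol. There the ethanol arrays were above all controls, at 0.42 (SE 0.15), with limma's unadjusted p at 0.0183 and adjusted p at 0.967. In the group 0 of 4 passed.

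Beside the genes that mesenchymal cells express, the fibroblast and smooth muscle markers were lower with ethanol in 11 of 12 measured (of 13), with a median of -0.17. Of all 4736 genes 2527 were below 0. Of the 12 markers, 0 passed in limma and 5 were at unadjusted p under 0.05 (41.7%, all genes 4.37%). The groups did not overlap in 3 of them, all lower (25%, all genes 4.92%). Their summed level ran from 483.0 to 676.8 in the controls and from 447.2 to 487.6 with ethanol, the highest 3 arrays being controls 1, 2 and 3. In an isolate of many cells, fewer cells of a type and less RNA per cell cannot be told apart. The part of these markers in the values of Fgf10, Fgf7, Hgf, Igf1, Pdgfra and Pdgfrb was not tested.

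Vegfa, the endothelial growth factor that type 2 cells release, had 4 probe sets, all above 0, from 0.065 to 0.38. The brightest read 6.31, 6.03, 6.22 and 5.67 in the 4 controls and 6.15, 6.31 and 6.16 in the 3 ethanol arrays, a difference of 0.15 (SE 0.16) that came to 0.019 without control 4 and 0.23 without control 1. A dimmer one, rc_AA850734_at, did not overlap, at 4.65, 4.04, 4.48 and 4.60 in the controls and 4.70, 4.80 and 4.98 with ethanol, with ethanol 2 close above control 1. Its difference was 0.38 (SE 0.17), limma's unadjusted p 0.0446 and adjusted p 0.967. Vegfd, a ligand of lymphatic growth, read 4.56, 4.91, 4.81 and 4.84 in the 4 controls and 4.72, 4.73 and 4.38 in the 3 ethanol arrays. Ethanol 4 was its lowest array, and the difference of -0.17 (SE 0.14) came to -0.056 without ethanol 4 and -0.24 without control 1.

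The VEGF receptors were both below 0. Kdr, the main signalling receptor of endothelium, had the lowest difference of all members, at a dim probe set that read 3.83, 3.13, 3.47 and 2.85 in the controls and 2.71, 3.08 and 2.98 with ethanol. Controls 1 and 3 were the highest arrays, but controls 2 and 4 overlap the ethanol arrays, and the difference was -0.39 (SE 0.22), the control mean being 1.31 times the ethanol mean. Without control 1 it was -0.23, and without control 4 it was -0.55. Flt1, the decoy-like receptor, was at -0.15 (SE 0.13). Of 13 other endothelial markers 7 were measured, 3 above 0 and 4 below, with a median of -0.015 and a summed level of 386.7 to 428.6 in the controls and 371.6 to 379.4 with ethanol. Edn1, the endothelin gene, made most of that gap at -0.44, and without it the sums overlap, at 277.4 to 317.3 in the controls and 278.9 to 318.7 with ethanol. Their part in the Kdr and Flt1 values was not tested. In the VEGF group 0 of 5 passed.

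**Figure D3:**
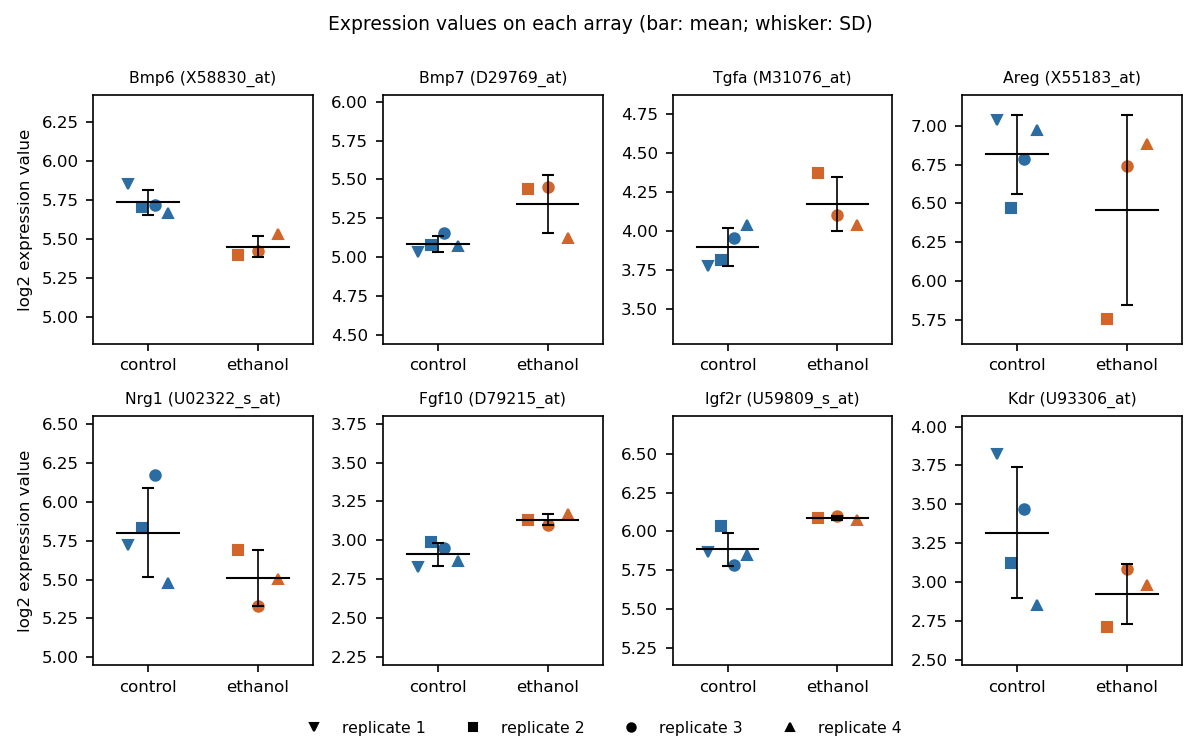
Log2 expression value (y axis, the same span in each panel) on every array for 8 members, controls in blue and ethanol in orange (x axis), the replicate number of the title as the symbol, the mean as a bar and the SD as a whisker. The groups are apart in Bmp6, Tgfa, Fgf10 and Igf2r, while in Areg ethanol 2 at 5.76 lies far below the other arrays.

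Several probe sets for 1 gene often did not point the same way. Of the 58 members 27 had 2 or more probe sets, 78 in all, and in 19 of the 27 they lay on both sides of 0. The 8 genes with all probe sets on 1 side were Igf1, Vegfa, Igfals and Bmp3 above 0 and Bmp2, Bmp6, Egf and Erbb3 below. Over all 109 probe sets 5 were at unadjusted p under 0.05 (4.59%, all 8740 probe sets 4.58%). The groups did not overlap in 11, of which 8 were higher (7.34%, all probe sets 2.53%) and 3 lower (2.75%, all probe sets 2.71%). Probe sets of 1 gene share its RNA, so these are not separate tests. Probe sets of a gene can read different transcript ends or forms, which the annotation used here does not describe.

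**Figure D4:**
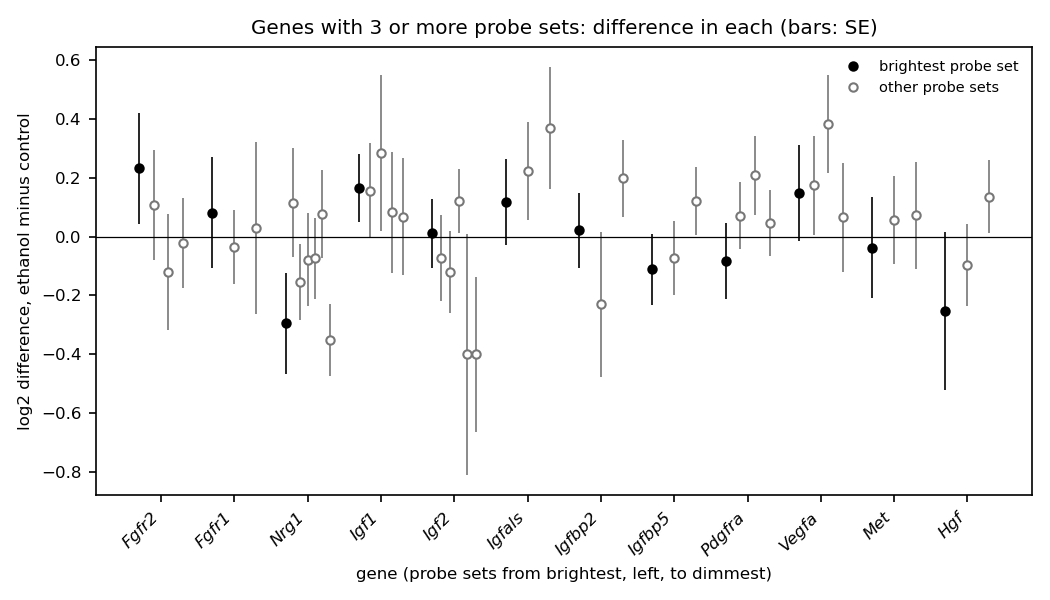
Log2 difference between ethanol and control (y axis, bar: SE) of every probe set of the 12 genes with 3 or more probe sets (x axis), from the brightest (filled) to the dimmest. All probe sets of Igf1, Igfals and Vegfa are above 0, and those of the 9 other genes are on both sides.

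Other genes of these pathways, from a list chosen with earlier results of these data known, also held 0 past the threshold. Of 39 other ligands, receptors and antagonists 26 were measured, and 0 passed, with 0 at unadjusted p under 0.05 (9 above 0, 17 below, median -0.054). The groups did not overlap in 4 of the 26 (15.4%, all genes 4.92%), 1 higher and 3 lower. Ghr, the growth hormone receptor gene, was at 0.26, the BMP antagonists Chrd and Nog were at -0.24 and -0.12, and Amh, the anti-Müllerian hormone gene, was at -0.21. Of 43 signal transducers 27 were measured, among them the adaptor Grb2, the kinases Akt1 and Map2k1 and the SMAD proteins. In limma 0 passed and 0 were at unadjusted p under 0.05 (11 above 0, 16 below, median -0.022).

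Of 19 inducible targets and feedback genes 14 were measured, and 13 were above 0 (46.6% of all genes were), with a median of 0.14. The gene below 0 was Errfi1, a feedback inhibitor of EGFR, at -0.38 (SE 0.21). In limma 0 passed and 2 were at unadjusted p under 0.05 (14.3%, all genes 4.37%), Egr1 and Socs2. Egr1, an immediate-early transcription factor, read 10.18, 9.05, 8.99 and 9.83 in the 4 controls and 9.67, 10.77 and 10.77 in the 3 ethanol arrays. Ethanol 3 and 4 were the highest arrays and ethanol 2 lay within the control range. The difference was 0.89 (SE 0.35), with limma's unadjusted p at 0.0309 and adjusted p at 0.967. Without control 2, control 3, ethanol 3 or ethanol 4 the unadjusted p of Egr1 lay between 0.0652 and 0.116. Socs2, a feedback inhibitor of growth hormone signalling, is a dim probe set that read 2.96, 3.14, 3.03 and 3.00 in the controls and 3.32, 3.43 and 3.44 with ethanol. All ethanol arrays were above the controls, at 0.37 (SE 0.11), with limma's unadjusted p at 0.00818 and adjusted p at 0.967.

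**Figure D5:**
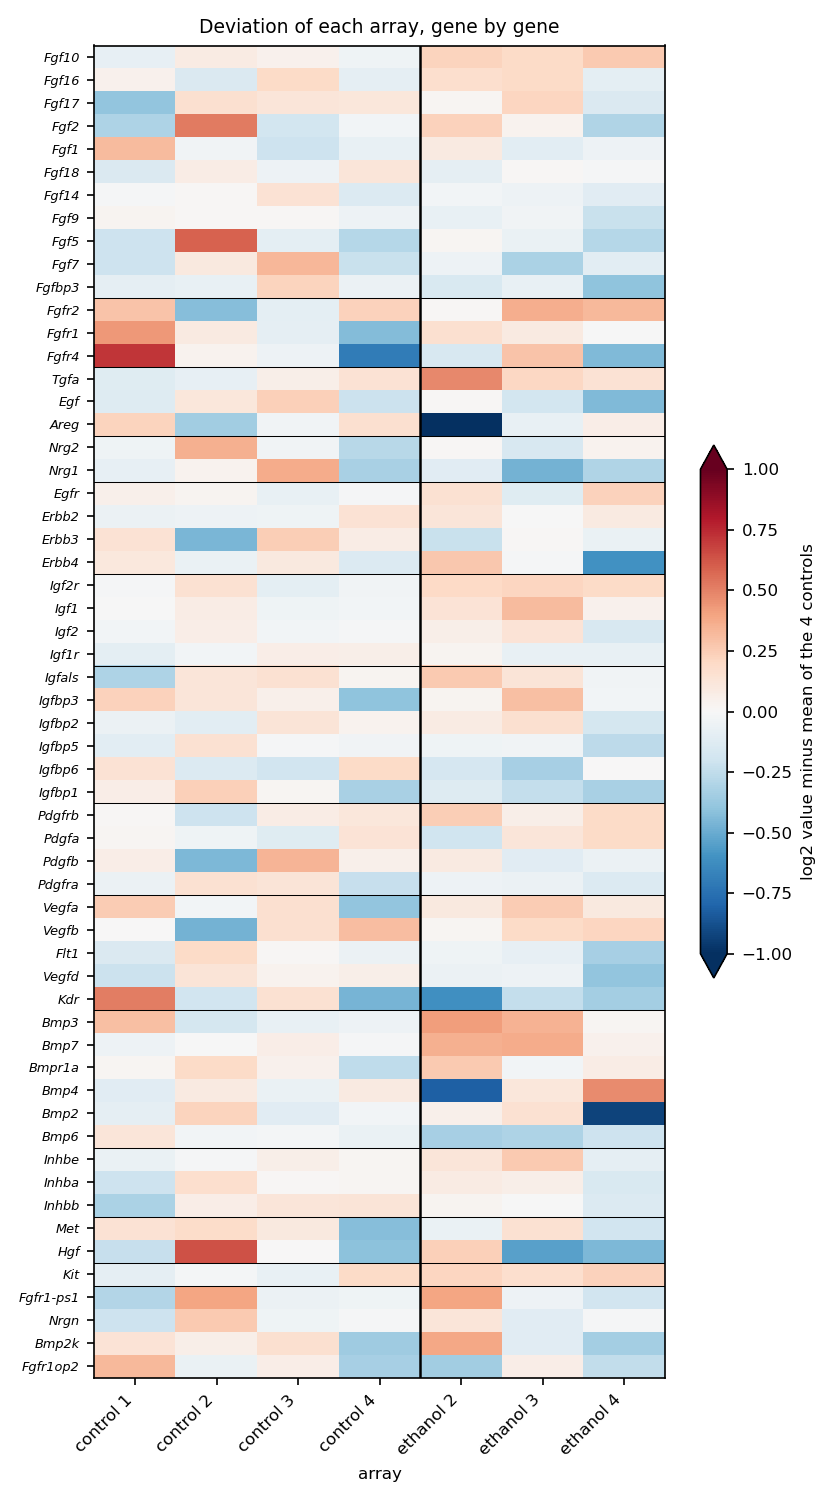
Deviation of each array (x axis) from the mean of the 4 controls, in log2 units by colour, for the 58 members (y axis, role groups parted by lines, colours end at -1 and 1). Within single genes, the largest deviation is in ethanol 2 for Areg and Bmp4, in ethanol 4 for Bmp2 and in control 2 for Hgf. Hgf deviates on other arrays too, and Fgfr4 deviates both ways, reading 5.83 in control 1 and 4.42 in control 4.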

How the data were processed

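The deposited values are log2 expression values of an Affymetrix rat genome array, 1 per probe set and animal. The log2 scale was taken from their range, 1.65 to 12.84, and the array means are nearly equal, at 4.758 to 4.760. The authors' normalization and the way probes were summarised are not given in the sources used here, and depth has no meaning for arrays, whose number limits the precision. Of 8799 probe sets 59 array controls were left out, and 7006 of the other 8740 had 1 gene symbol, 308 several and 1426 none. Symbols of the members matched RefSeq (GRCr8) through Entrez numbers in 58 of 58, and the promoter windows are RefSeq's.

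Ethanol was compared with control in limma 3.58.1 (R 4.3.3, statmod 1.5.0) with lmFit and eBayes on all 8740 probe sets, and p-values were Benjamini-Hochberg adjusted over them with a threshold of 0.05. The p-values set each difference against the spread between these animals, moderated towards that of all probe sets. Figures were drawn with matplotlib 3.10.9 (Python 3.11.15). The fit was tested on simulated data. Values on every array are printed for 26 members: those whose groups did not overlap, the 2 of each role group with the lowest unadjusted p, and those with probe sets of opposite sign of which 1 had an unadjusted p under 0.05. Other genes named have a known part in alveolar epithelium or its neighbours, or were named after their values were seen (Bmp3, Fgf17, Igfals, the arrays of Vegfa and single probe sets). The members and the lists were chosen with earlier results of these data known. The alternatives tried were centring on the median or quantile normalization between arrays, leaving out dim probe sets by 2 thresholds, averaging all probe sets of a gene, trended robust moderation, no moderation, array weights, a replicate block and leaving out each array. A fit with the spread of each array as a covariate was chosen after seeing the data. Nothing in the labels says that equal numbers pair the rats.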

Additional observations from a re-analysis of the deposited data

Results flagged for a closer look

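In 5 of the 62 probe sets examined (8.06%), 1 of the 4 control arrays lay far from the other 3 by Dixon's test, where chance gives about 1 in 20. Erbb2 read 5.03 in control 4 and 4.83 to 4.84 in the other controls. Fgf17 read 4.14 in control 1 and 4.64 to 4.69 in the others. Fgfbp3 read 4.92 in control 3 and 4.60 to 4.63 in the others. Inhbb read 5.33 in control 1 and 5.71 to 5.78 in the others. Met read 3.69 in control 4 and 4.21 to 4.29 in the others. The 3 ethanol arrays were too few for this test.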

How the results depend on the processing

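The count of growth factor and receptor genes past the threshold was 0 under each alternative run, with the lowest adjusted p of a member at 0.292 (array weights). Over all probe sets the 13 calls became 0 without moderation (367 at unadjusted p under 0.05) and 23 with the replicate block. Members at unadjusted p under 0.05 numbered 1 of 58 (all probe sets 4.58%). They numbered 2 with quantile normalization (5.14%), 3 with median centring (4.62%), 2 with trended robust moderation (4.57%), 5 with no moderation (4.20%), 8 with array weights (11.8%), 2 with the replicate block (8.12%) and 5 with the array spread as covariate (8.74%), the share of all probe sets in parentheses. With 1 array left out they numbered 0 to 5: 0 without control 3 (2.64%), ethanol 2 (4.06%) or ethanol 3 (2.99%), 4 without ethanol 4 (4.27%) and 5 without control 4 (9.03%). Deviations from the group means correlated at 0.425, 0.067 and 0.432 for equal numbers 2, 3 and 4, and from -0.531 to 0.352 for unequal numbers. With this, 5 of 6 arrays correlated best with their own number. Whether equal numbers share a pairing or a batch cannot be told from these values. Of 689 gene values under alternatives 659 kept their sign, and 30, in 11 of 42 genes, did not. Array weights gave Bmp2 0.0083, Bmp4 0.067 and Met 0.036, and the replicate block gave Met 0.0098 and Fgf17 -0.10. The array spread as covariate gave Met 0.020 and Nrg2 0.017, and quantile normalization gave Igf2 -0.0028. The mean of all probe sets gave Met 0.031, Igf1r 0.074, Igf2 -0.14, Pdgfb 0.20 and Pdgfra 0.060. With 1 array left out the values ran from -0.44 to 0.10 (Bmp2), -0.35 to 0.29 (Bmp4), -0.10 to 0.12 (Fgf17), -0.063 to 0.23 (Fgfr1), -0.052 to 0.095 (Igf2), -0.14 to 0.013 (Inhbb), -0.18 to 0.041 (Met), -0.13 to 0.082 (Nrg2) and -0.18 to 0.086 (Pdgfb). The cause of these changes was not tested. The filters left 52 and 38 members. With 7 arrays the median confidence interval reached 0.32 on either side of a difference.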
